A study of Mus musculus with 4 samples.

Results

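The 6 genes described here, Gjb2, Gjb5, Gjb6, Gja1, Gja4 and Gjc1, encode gap junction connexins of epidermis and dermis. They were taken by name, each as the brightest probe set that the platform annotation gives to that symbol alone. Each of the 6 had 1 such probe set, among 19938 genes with a probe set of a single symbol. RNA came from skin of mouse embryos at E16.5 (E, embryonic day) and was read on 4 Affymetrix arrays, each of which received RNA pooled from 2 mice. The 2 Ovol2 BT arrays hold skin of TRE-Ovol2-Flag;K5-tTA embryos, in which a transactivator under the keratin 5 promoter drives a tetracycline-responsive, Flag-tagged Ovol2 transgene in basal keratinocytes. The 2 control arrays hold skin of embryos with TRE-Ovol2-Flag alone or of wild type, and no array of K5-tTA alone was analysed here. The labels give the strain FVB/N for Ovol2 BT and CB6F1 for control, yet they also speak of littermates that shared cages, which is at odds with different strains. If the strain labels hold, genotype and strain cannot be told apart. The Ovol2 protein is a zinc finger regulator of transcription in epithelial cells. The study set out to find early differences in RNA, at an age with little visible change in the skin.

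Connexins are membrane proteins that cross the membrane several times. A ring of them forms a hemichannel, and hemichannels of neighbouring cells dock into gap junctions that pass ions and small metabolites. Keratinocytes use several family members, with Gja1 in the lower layers of the epidermis and in hair follicles, and the beta connexins in the differentiating layers and the follicle. Mutations of human GJB2, GJB6 and GJA1 cause skin disorders such as keratitis-ichthyosis-deafness syndrome, hidrotic ectodermal dysplasia and oculodentodigital dysplasia. Gja4 is mainly a connexin of arterial endothelium, and Gjc1 is best known from vascular smooth muscle and the conduction system of the heart.

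The windows before the start sites of the members are shown because the values of Gjb2, Gjb6, Gjb5 and Gja1 moved the same way. RefSeq (GRCm38.p6) gave a window for 5 of the 6 members, the other being Gjc1. The 250 bases up to the annotated start are printed, 5′ to 3′ on the gene's strand. Capitals mark the letters GGGCGG (a GC box) and TGANTCA (the site of AP-1), searched on both strands. The windows lie at chr14:57104703-57104952, minus strand, for Gjb2, at chr14:57133612-57133861, minus strand, for Gjb6, at chr4:127358165-127358414, minus strand, for Gjb5, at chr10:56377050-56377299, plus strand, for Gja1, and at chr4:127314040-127314289, minus strand, for Gja4.
Gjb2: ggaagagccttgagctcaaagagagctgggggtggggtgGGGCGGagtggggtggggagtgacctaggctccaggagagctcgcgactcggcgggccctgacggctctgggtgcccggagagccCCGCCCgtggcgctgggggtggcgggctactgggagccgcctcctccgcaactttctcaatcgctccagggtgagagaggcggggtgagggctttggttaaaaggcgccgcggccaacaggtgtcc
Gjb6: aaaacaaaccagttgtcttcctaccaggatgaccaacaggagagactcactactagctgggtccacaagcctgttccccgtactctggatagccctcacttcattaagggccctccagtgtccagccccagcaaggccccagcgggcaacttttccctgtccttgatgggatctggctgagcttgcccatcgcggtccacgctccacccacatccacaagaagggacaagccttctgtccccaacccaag
Gjb5: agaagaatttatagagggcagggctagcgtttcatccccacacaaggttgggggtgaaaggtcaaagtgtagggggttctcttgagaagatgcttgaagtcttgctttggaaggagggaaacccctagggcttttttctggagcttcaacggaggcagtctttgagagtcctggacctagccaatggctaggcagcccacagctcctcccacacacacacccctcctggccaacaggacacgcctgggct
Gja1: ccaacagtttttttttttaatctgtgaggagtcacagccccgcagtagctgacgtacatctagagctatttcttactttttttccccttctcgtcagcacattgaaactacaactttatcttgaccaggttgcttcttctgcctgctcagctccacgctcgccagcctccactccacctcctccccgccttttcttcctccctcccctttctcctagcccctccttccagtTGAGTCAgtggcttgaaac
Gja4: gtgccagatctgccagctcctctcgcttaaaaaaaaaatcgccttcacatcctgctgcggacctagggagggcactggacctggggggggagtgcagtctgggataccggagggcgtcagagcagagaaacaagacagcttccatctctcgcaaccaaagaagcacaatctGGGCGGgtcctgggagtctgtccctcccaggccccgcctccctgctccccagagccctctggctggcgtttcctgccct

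The Ovol core CCGTTA, the letters reported for DNA binding by Ovol proteins, was searched on both strands too and was in 0 of these 5 windows. Of all 32851 RefSeq windows of the same length, 2.18% held it. The GC box was found 2 times before Gjb2, at 211 and 126 bases before the start, and 1 time before Gja4, at 79 bases. It was in 32.7% of all windows. The AP-1 letters were found only before Gja1 among the 5, at 19 bases before the start, and in 6.75% of all windows. The windows of Gjb5 and Gjb6 held none of the 3 motifs. Bases G and C made up 69.2% of the Gjb2 window and 50% of the Gja1 window, against a median of 52.4% over all windows. These matches describe letters in a window of 250 bases and were not tested for binding.

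Ovol2 itself read 12.93 and 12.96 on the Ovol2 BT arrays, against 7.59 and 8.29 on the control arrays, on the log2(intensity + 16) scale on which all differences are given. Its rise of 5.01 (SE 0.27) passed in limma (adjusted p = 0.0253). Of 14953 genes tested, 4 passed at an adjusted p under 0.05, which is 0.0268%. One array, Ovol2 BT replicate 2, was unlike the rest. It had 893 genes that read over 2-fold lower than their mean on the remaining 3 arrays, and Ovol2 BT replicate 1 had 33. The labels call all embryos female, but the Y-linked genes Uty and Kdm5d read between 9.19 and 9.70 on replicate 1 of both genotypes and between 4.24 and 5.76 on replicate 2 of both. The X-linked gene Xist read 8.36 and 10.80 on the Ovol2 BT arrays, against 7.07 and 13.16 on the control arrays. It was thus less even between the genotypes than Uty and Kdm5d. The Y-linked signal departs from the labels on 1 array of each genotype. Each member's difference between the arrays of the same number is given below for that reason. Values without single arrays are given as well.

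Of the 6 connexins, 4 that keratinocytes use had lower signal on both Ovol2 BT arrays than on either control array. They are Gjb6, Gjb5, Gjb2 and Gja1, with differences from -0.66 to -0.31 on the log2 scale. Gja4 read higher on both Ovol2 BT arrays, and Gjc1 hardly differed. None of the 6 passed in limma over all genes tested, with adjusted p between 0.774 and 0.968 and n = 2 arrays per group. At an unadjusted p under 0.05 there were 3 of the 6, all lower, namely Gja1, Gjb2 and Gjb6, against 1.74% of all genes tested that were lower at that p. The arrays of the genotypes did not overlap for any of the 6, 5 of them lower and 1 higher. Gjc1 is among the 5 only by 1664.03 on Ovol2 BT replicate 2 against 1664.67 intensity units on control replicate 2. Over all genes tested 14.1% were lower without overlap and 20.1% were higher without overlap. The median difference over the 6 was -0.35, beside 0.03 over all genes tested. Whether the members differ from each other in their response was not tested.

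**Figure D1:**
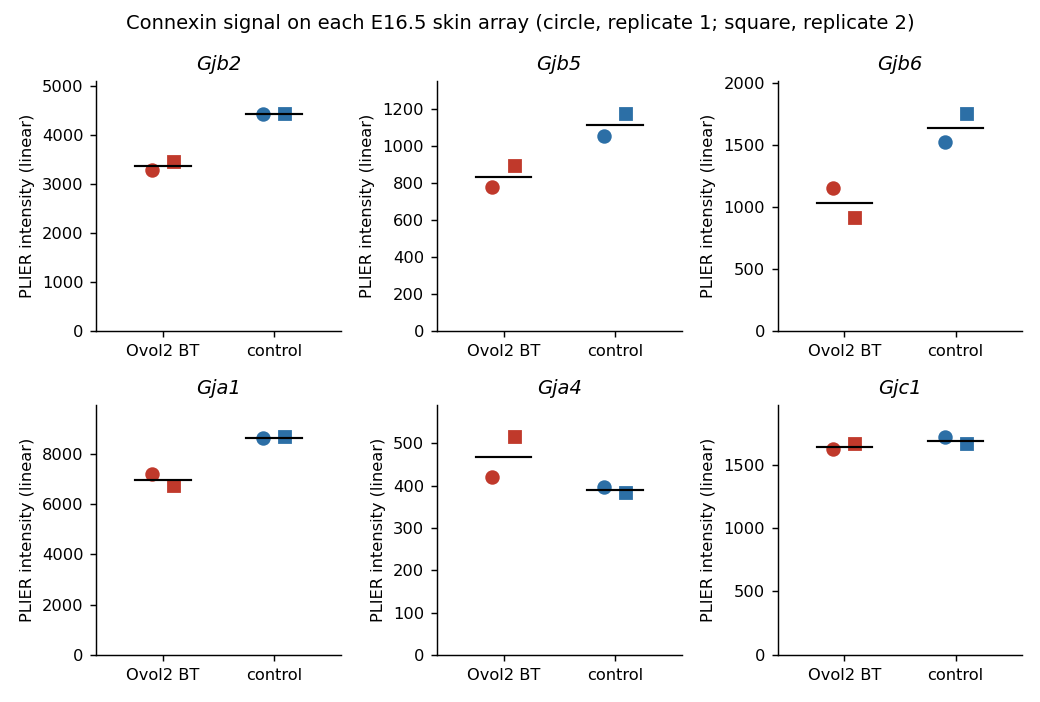
Deposited PLIER intensity (linear vertical axes from 0) of the 6 connexins on the 2 Ovol2 BT arrays and the 2 control arrays. Circles are replicate 1, squares are replicate 2 and black lines are the mean of 2 arrays. Gjb2, Gjb5, Gjb6 and Gja1 sit lower on both Ovol2 BT arrays, and the Gjc1 arrays nearly coincide.

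Gjb6 (Cx30), the connexin mutated in human hidrotic ectodermal dysplasia, had the widest difference of the 6. Its deposited intensity was 1151 and 911 on the Ovol2 BT arrays, against 1519 and 1751 on the control arrays. Both Ovol2 BT arrays lay under both control arrays, but the arrays of 1 genotype also differed from each other. On the log2 scale the Ovol2 BT mean was 10.02 ± 0.24 and the control mean 10.69 ± 0.14 (SD, n = 2 each). The difference was -0.66 (SE 0.21, 95% interval -1.18 to -0.14, unadjusted p = 0.0213, limma adjusted p = 0.906), and the mean intensity was 0.631 times that of control. Gjb6 was lower within both pairs of same-numbered arrays, with -0.40 between replicates 1 and -0.93 between replicates 2. With Ovol2 BT replicate 2 alone against the controls it was -0.83 (limma adjusted p = 0.00868), and with Ovol2 BT replicate 1 alone it was -0.50 (limma adjusted p = 0.367). In the fit that kept Ovol2 BT replicate 2 as the only Ovol2 BT array, however, 16.3% of all genes passed.

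Gjb2 (Cx26), a neighbour of Gjb6 on chromosome 14 and the connexin most often mutated in inherited human deafness, was more even between replicates. Its intensity was 3276 and 3438 on the Ovol2 BT arrays, against 4427 and 4423 on the control arrays. The gap between the genotypes was wider than the gap within either. The difference was -0.40 on the log2 scale (SE 0.11, 95% interval -0.68 to -0.11, unadjusted p = 0.0151, limma adjusted p = 0.884), a mean intensity of 0.759 times that of control. Between arrays of the same number it was -0.43 for replicates 1 and -0.36 for replicates 2. Gja3, a lens connexin that flanks Gjb2 on the other side, read 725 and 1055 on the Ovol2 BT arrays, against 945 and 808 on the control arrays. The genotypes overlapped for Gja3, and its difference was 0.00 (0.0016, SE 0.25).

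Gja1 (Cx43), the most widely used connexin of mammalian tissues, is made by keratinocytes and by dermal cells alike. Its intensity was 7194 and 6716 on the Ovol2 BT arrays, against 8615 and 8656 on the control arrays. Both Ovol2 BT arrays were lower, and the control arrays lay close together. The difference was -0.31 on the log2 scale (SE 0.08, 95% interval -0.51 to -0.12), with the lowest unadjusted p of the 6 (0.0088) and a limma adjusted p of 0.774. It was -0.26 between replicates 1 and -0.37 between replicates 2, and -0.36 (limma adjusted p = 0.0178) with Ovol2 BT replicate 2 as the only Ovol2 BT array, the fit in which 16.3% of all genes passed. With replicate 1 as the only Ovol2 BT array it was -0.26 (limma adjusted p = 0.311). In skin taken whole, fewer cells of a type and less RNA per cell cannot be told apart, for this and every other member. Gja6, a close relative of Gja1 on the X chromosome that is best known from testis, read 812 and 659 on the Ovol2 BT arrays, against 857 and 1000 on the control arrays, a difference of -0.33 (SE 0.21, limma adjusted p = 0.906). It was -0.48 with Ovol2 BT replicate 2 alone and -0.18 with replicate 1 alone. Whether its probes also bind Gja1 transcripts was not tested.

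Gjb5 (Cx31.1), a connexin of stratified epithelia and placenta in mice, read 776 and 890 on the Ovol2 BT arrays, against 1051 and 1174 on the control arrays. Both Ovol2 BT arrays were lower, and replicate 2 was the brighter array within each genotype. The difference was -0.41 on the log2 scale, but its interval included 0 (SE 0.19, 95% interval -0.90 to 0.07, limma adjusted p = 0.906). It was -0.43 between replicates 1 and -0.39 between replicates 2. Against the control mean, replicate 1 alone gave -0.51 and replicate 2 alone gave -0.32.

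Gja4 (Cx37), the endothelial connexin, was the only one of the 6 with a higher reading. Its intensity was 420 and 514 on the Ovol2 BT arrays, against 396 and 383 on the control arrays. Ovol2 BT replicate 1 lay close to the controls, and replicate 2 carried most of the difference. The difference of 0.24 on the log2 scale did not pass (SE 0.19, 95% interval -0.23 to 0.72, limma adjusted p = 0.906). It was 0.38 with replicate 2 alone and 0.10 with replicate 1 alone, and between arrays of the same number 0.08 for replicates 1 and 0.41 for replicates 2. Gja5, the other arterial connexin, read 326 and 444 on the Ovol2 BT arrays, against 378 and 290 on the control arrays, with the genotypes overlapping and a difference of 0.19 (SE 0.24) that was -0.02 without Ovol2 BT replicate 2.

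Gjc1 (Cx45) read 1621 and 1664 on the Ovol2 BT arrays, against 1715 and 1665 on the control arrays. Its 4 values span 0.08 on the log2 scale, and replicates 2 of the genotypes were almost equal, with -0.08 between replicates 1. The difference was -0.04 (SE 0.16, limma adjusted p = 0.968), with a 95% interval of -0.44 to 0.36. That interval still holds the differences measured for Gjb2, Gjb5, Gja1 and Gja4. It is wide beside the SD of 0.03 within each genotype, because limma borrows variance from genes of like intensity.

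Across the wider family, 16 of the 20 connexin symbols looked for had a probe set of a single symbol, and 14 of these were bright enough to be tested. None of the 14 passed in limma, while 3 had an unadjusted p under 0.05, which are the 3 members named above. Of the 14, 6 had positive and 8 negative differences, with a median of -0.04 beside 0.03 over all genes tested. Among the 8 tested connexins outside the 6, 5 were positive and 3 negative, with a median of 0.05. This balance too rested on Ovol2 BT replicate 2, without which 2 (Gjd3 and Gje1) were positive and 6 negative, with a median of -0.05. Over the 14, that setting gave 3 positive and 11 negative differences and a median of -0.13, beside 0.00 (-0.0046) over all genes tested. For the 6 members the split was 1 positive and 5 negative with either Ovol2 BT array alone, as it must be where the genotypes do not overlap. Among the 8 outside the members, Gjc3, a connexin of myelinating glia, had the widest difference, at -0.65 (SE 0.31, limma adjusted p = 0.906). It read 210 and 106 on the Ovol2 BT arrays, against 259 and 232 on the control arrays. It thus rested on Ovol2 BT replicate 2, without which it was -0.21. Gjd3 was higher on both Ovol2 BT arrays (590 and 552, against 465 and 513), at 0.22 (SE 0.18). The liver and Schwann cell connexin Gjb1 was at -0.04 (SE 0.14). Gja10 and Gjd2, connexins of neurons, were too dim to be tested.

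**Figure D2:**
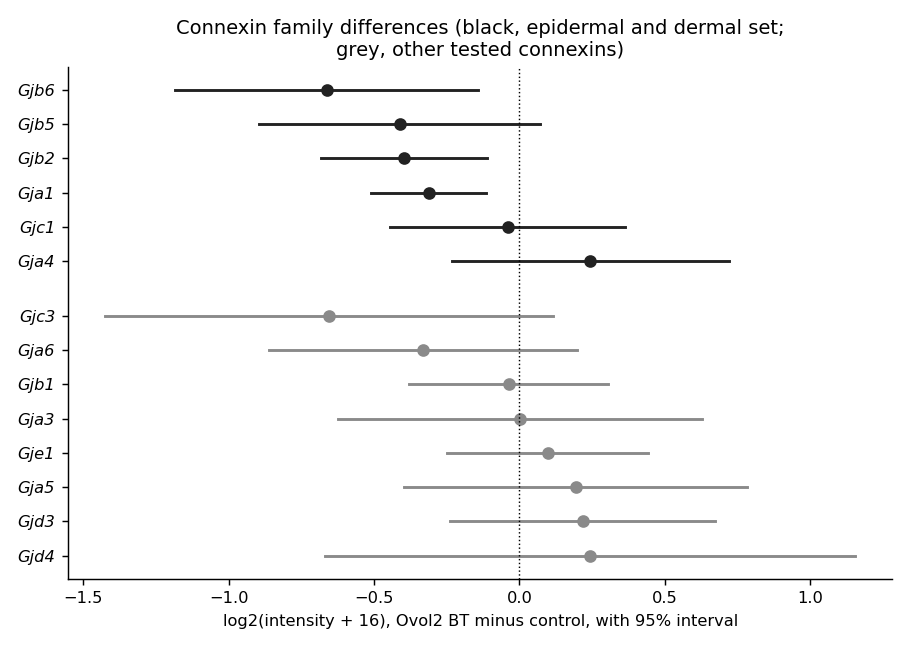
Difference in log2(intensity + 16), Ovol2 BT minus control, for the 14 connexins tested, with the 95% interval of the limma fit over 4 arrays as lines. Black marks the 6 epidermal and dermal connexins and grey the 8 others. The intervals of Gjb6, Gjb2 and Gja1 lie under 0 before adjustment, and those of the other 11 include 0.

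Pannexins form channels related in shape to connexin hemichannels. Panx1, the widely expressed member, read 719 and 874 on the Ovol2 BT arrays, against 731 and 653 on the control arrays, a difference of 0.19 (SE 0.20) that was 0.06 without Ovol2 BT replicate 2. Panx2 was at 0.16 (SE 0.15), and Panx3, a pannexin of cartilage, bone and skin, was too dim to be tested. Neither of the 2 tested passed in limma (adjusted p = 0.907 and 0.906).

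Of 12 measured genes, of 13 listed, whose proteins bind connexins, carry them to the membrane or build the cell contacts beside them, none passed in limma, with 7 positive and 5 negative differences and a median of 0.06. Ctnnb1, the beta-catenin of adherens junctions, was lower on both Ovol2 BT arrays (6880 and 6526, against 7863 and 7798), at -0.22 (SE 0.08, unadjusted p = 0.0333, limma adjusted p = 0.906). Tjp1, the scaffold ZO-1 that binds the tail of Cx43, was at -0.41 (SE 0.21, limma adjusted p = 0.906). It was -0.66 with Ovol2 BT replicate 2 alone and -0.15 with replicate 1 alone. The ubiquitin ligase Nedd4, which takes part in the turnover of Cx43, was at -0.24 (SE 0.12), with -0.39 on Ovol2 BT replicate 2 alone and -0.08 on replicate 1 alone. Cdh1, the E-cadherin that connexin assembly depends on, was at 0.07 (SE 0.11). Eps8l1 and Tuba1a were higher on both Ovol2 BT arrays, at 0.23 (SE 0.15) and 0.15 (SE 0.09). Ccn3, a secreted protein that binds Cx43, read 4409 and 1732 on the Ovol2 BT arrays, against 1770 and 2002 on the control arrays, so its difference of 0.55 (SE 0.43) came from Ovol2 BT replicate 1.

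Other markers of the epidermis moved beside the connexins. The 7 basal keratinocyte genes summed to between 25078 and 26409 intensity units on the Ovol2 BT arrays, against 38480 to 40250 on the control arrays. Of the 7, 6 had negative differences, 3 of them without overlap, 1 was higher without overlap, and none passed in limma. Over all genes tested 45.6% had negative differences, 14.1% were lower without overlap and 20.1% were higher without overlap. With either Ovol2 BT array alone, 5 of the 7 were negative and 2 positive. The keratins Krt5, Krt14 and Krt15 stood at -0.87, -0.66 and -1.41, and each was lower on both Ovol2 BT arrays. These keratins held most of the basal sum and nearly all of its drop. The basal regulator Trp63 was at -0.21, with -0.36 on Ovol2 BT replicate 2 alone and -0.07 on replicate 1 alone. Itga6 and Col17a1 were at -0.09 and -0.05, with the genotypes overlapping, and the integrin Itgb4 was at 0.45. The 5 measured suprabasal genes summed to between 52007 and 53304 on the Ovol2 BT arrays, against 55037 to 55855 on the control arrays. The 7 genes of the granular layer summed to between 38972 and 39693 on the Ovol2 BT arrays, against 37696 to 42180 on the control arrays. None of the 7 passed in limma, with 3 positive and 4 negative differences. Flg2 (1.35) and Cdsn (0.31) were higher without overlap, and Tgm3 (-1.22) was lower without overlap. The 7 periderm genes summed to between 25544 and 27626 on the Ovol2 BT arrays, against 14941 to 15728 on the control arrays, with 1 passing in limma. The 4 stress keratins summed to between 19097 and 20806 on the Ovol2 BT arrays, against 7224 to 8262 on the control arrays, also with 1 passing. The labelled tissue matched its defining markers, since keratinocyte and dermal fibroblast genes were read on all 4 arrays. The part of these marker differences in the lower connexin signal was not tested.

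For the vascular connexins, the 12 endothelial genes summed to between 20083 and 21937 on the Ovol2 BT arrays, against 19551 to 20801 on the control arrays. Of the 12, 9 had positive and 3 negative differences, with a median of 0.11 and none passing in limma. That balance rested on Ovol2 BT replicate 2. With replicate 1 as the only Ovol2 BT array, 5 were positive and 7 negative, with a median of -0.01. The 10 pericyte and smooth muscle genes summed to between 18114 and 24075 on the Ovol2 BT arrays, against 18457 to 21781 on the control arrays, so the genotypes overlapped. The 9 measured dermal fibroblast genes, of cells that also use Gja1, summed to between 67905 and 76160 on the Ovol2 BT arrays, against 71809 to 74065 on the control arrays, with 5 positive and 4 negative differences (8 and 1 without Ovol2 BT replicate 2). Skeletal muscle genes summed to 38307 and 62908 on the Ovol2 BT arrays, against 61514 and 38596 on the control arrays. The amount of muscle signal thus differed between arrays of 1 genotype, not between the genotypes. The 5 measured erythroid genes summed to 4475 and 15359 on the Ovol2 BT arrays, against 3911 and 7356 on the control arrays. They were brightest on Ovol2 BT replicate 2. The part of blood and muscle in the member values was not tested.

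Genes of like pattern were looked up for the members whose 4 values span at least 0.5 on the log2 scale, which were Gjb5 and Gjb6. The measure was the root mean square difference over the 4 arrays after each gene was centred on its own mean. Nearest to Gjb5 were Gdpd2 (0.00625) and Zfp296 (0.02), with log2 differences of -0.41 and -0.39. Nearest to Gjb6 were Cpne8 (0.02) and Gm5965 (0.0265), with log2 differences of -0.65 and -0.70. With 4 points and 14953 genes, close matches are a description of these arrays alone.

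**Figure D3:**
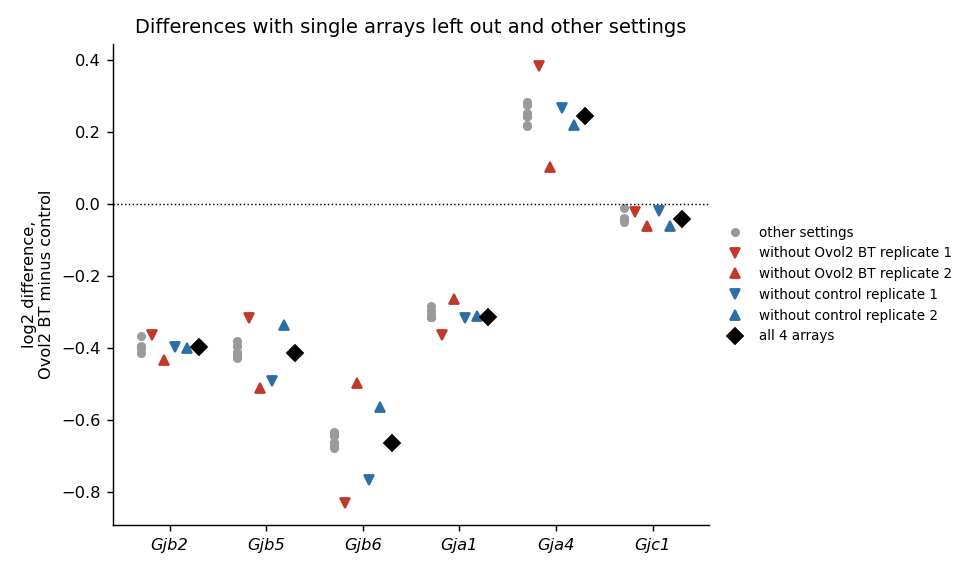
Difference in log2 signal, Ovol2 BT minus control, for each connexin with all 4 arrays (black diamonds), with 1 array left out (coloured triangles) and under the other settings tried (grey circles). Gjb2, Gjb5, Gjb6 and Gja1 stay under 0 throughout, Gja4 stays above 0, and Gjb6 spans the widest range, from -0.83 to -0.50.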

How the data were processed

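Total RNA of embryonic skin was labelled after random priming, per the labels' protocols. The authors deposited 1 linear intensity value for each probe set on each array, made with Affymetrix Expression Console 1.1.1 and PLIER 2.0, per the submitters' processing notes. How the arrays were normalised against each other, and the probe sets' genome build, is not given in the sources used here. Median intensities were 303.5 and 266.0 on the Ovol2 BT arrays and 282.3 and 299.5 on the control arrays. Precision is limited by the number of arrays, which carry no read depth.

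From the 35557 deposited probe sets, the 21789 with 1 symbol were kept (1621 had several and 12147 had none listed), and for 21698 the symbol was brought up to date by Entrez number in RefSeq. Values were taken to log2(intensity + 16). The 25% of genes with the lowest mean (level under 7.32) were left out, and limma 3.58.1 in R 4.3.3 (lmFit, eBayes with an intensity trend, 2 residual and 3.45 prior degrees of freedom) was fitted over 14953 genes, two-sided, with Benjamini-Hochberg adjustment over all of them. The fit was tested on simulated data with log2 differences added to some genes. It recovered 0% of those of 0.5, 0.8% of 1, 48.8% of 2 and 80.8% of 4, with 2.4 false calls per run. Differences as small as those of the members were thus seldom recovered there. The simulation dealt the spreads of the genes out at random, without regard to level, whereas the fit uses a trend with intensity. It therefore gives no recovery rate for the members themselves. That none of them passed does not show that they were unchanged. No exact permutation test was used, since 2 arrays against 2 cannot go below p = 0.333. Same-numbered arrays of the genotypes deviated in opposite directions (r = -0.172 over genes), so the numbers were not treated as pairs. P-values rest on the spread between these arrays, each of pooled mice, and on a variance that limma borrows from genes of like intensity. Alternatives covered normalisation, offset, filter, probe set choice, variance model, array weights, the replicate number and each array left out. The named genes were the 6 members, Ovol2, the fixed family, partner and marker lists and the 2 nearest profiles. The members and lists were chosen with earlier results of these data known. The promoter motifs were chosen after the values were seen, as were Uty, Kdm5d and Xist.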

Additional observations from a re-analysis of the deposited data

How the results depend on the processing

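Each of the 6 members kept the direction of its difference under every alternative in which it was tested, 16 for 5 of them and 15 for Gja4, which the filter at the 50th percentile removed. Most of these alternatives could not have reversed it. The filter, probe set choice, variance model, array weights and replicate blocks left the estimate itself unchanged. Leaving out 1 array or changing the offset cannot reverse it where the genotypes do not overlap, as for all 6. Only the normalisations could have done so. With all 4 arrays no setting put a connexin past the threshold. Leaving out 1 array in turn, the differences ranged from -0.43 to -0.36 for Gjb2, from -0.51 to -0.32 for Gjb5, from -0.83 to -0.50 for Gjb6, from -0.36 to -0.26 for Gja1, from 0.10 to 0.38 for Gja4 and from -0.06 to -0.02 for Gjc1. Without Ovol2 BT replicate 1, 3 connexins passed as lower in limma, Gjb6 (-0.83), Gja1 (-0.36) and Gjc3 (-1.10), and in the other fits that left out an array 0 passed. The lone Ovol2 BT array is assumed there to vary like the controls. The count over all genes, 4 with all arrays, ranged from 4 to 2432 with 1 array left out, being 2432 and 110 when the first or the second Ovol2 BT array was dropped and 11 without control replicate 1. It was 10 with median centring, 9 with the replicate block, and 0 with cyclic loess (673 at an unadjusted p under 0.05) and with no intensity trend (601). With the replicate block no connexin passed, and the Gjb2 estimate of -0.40 cannot move with a block in this balanced design. The crossed pairing, added after the data were seen, called 5 genes and 0 connexins. Dim probe sets and the 2 arrays per group limit the precision, and the causes of these shifts were not tested.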
